A study of Mus musculus with 2 samples.

Results

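The genes described here are 32 mouse genes of amino acid uptake and of the stress response driven by the transcription factor ATF4. They were listed by name, and their probes were found by matching the transcript names of the array to RefSeq symbols. All 32 were on the array, out of 23462 genes named there, with 45 probes. The study cultured naive CD8 T cells, selected as CD44 low and CD62L high from the spleen of C57BL/6 mice. The prednisolone culture received the synthetic glucocorticoid prednisolone at 1 µM during 2 days of stimulation, and the vehicle culture received vehicle. Both were stimulated in interleukin-2 (10 ng/ml) on plates coated with anti-TCR-β (3 µg/ml) and anti-CD28 (1 µg/ml), were then moved to a new plate with interleukin-2 for 3 more days, and gave RNA on day 5. There was 1 array per culture, with no replicates, so that no difference below was tested and none has a p-value or an estimate of the spread between cultures. How many mice each culture came from is not stated in the labels.

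Cells sense a shortage of amino acids, and stress in the endoplasmic reticulum, through kinases that phosphorylate the translation factor eIF2α. This lowers protein synthesis in general but raises translation of the Atf4 message, and the ATF4 protein then switches on genes that import amino acids, make them and charge tRNAs with them, together with the stress regulators CHOP (Ddit3) and TRIB3. In T cells, stimulation through the T cell receptor is known to raise the transporters SLC7A5 and SLC1A5, since dividing cells need large amounts of leucine and glutamine. Because ATF4 is controlled largely at translation, the messages measured here do not give the amount of the protein.

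The probe values are processed signals, in intensity units of the scanner software. Differences are log2 values, prednisolone minus vehicle, after each array was scaled to its 75th percentile (386.9 units with prednisolone and 400.4 with vehicle). The ± sign gives the scanner software's own error for the 2 arrays, which leaves out the spread between cultures. A gene's difference is the mean over its probes that were well above background on both arrays, and genes 2-fold or more apart (a log2 value of 1) were counted. On each array 53.5% of 59305 spots were well above background and none was saturated. All 12 markers of CD8 T cells were above background on both arrays, with summed signals of 411928 units with prednisolone and 507814 with vehicle. Of these, 9 lay below 0, with a median difference of −0.28 and with Cd3g lowest (−0.87 ± 0.20), and none was 2-fold apart. Of the markers of B cells 2 of 6 were above background on each array, with summed signals of 1653 units with prednisolone and 1106 with vehicle, nearly all of it from Cd79b (1623 units with prednisolone, 1063 with vehicle). For myeloid and dendritic cells 4 of 8 with prednisolone and 3 of 8 with vehicle were above background (4239 units with prednisolone, 5083 with vehicle), and for NK cells 3 of 4 with prednisolone and 1 of 4 with vehicle (229 units with prednisolone, 75.9 with vehicle). Of the myeloid markers, Itgam made up most of the sum (0.02 ± 0.22), and Cd68, the gene of a lysosomal protein of macrophages, was 5.41-fold lower with prednisolone (−2.43 ± 0.15), on both of its probes. Of the NK cell markers, Klra8 was above background with prednisolone alone and at least 6.10-fold higher. Of the listed markers, Ms4a1, Lyz2, Adgre1 and Ncr1 lay at background with prednisolone and with vehicle. From the same lists, Csf1r was above background on both arrays and both probes (165 and 293 units with prednisolone, 146 and 355 with vehicle). So were Pax5 (13.2 units with prednisolone, 14.5 with vehicle) and 1 probe of Klrb1c (23.4 with prednisolone, 23.1 with vehicle). For CD4 T cells 3 of 4 markers were above background on each array (1081 units with prednisolone, 1449 with vehicle), and for erythroid cells 2 of the 4 on the array (2033 units with prednisolone, 268 with vehicle), where the haemoglobin gene Hba-a1 was 15.7-fold higher with prednisolone. The part of these other cells in the results below was not tested.

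With prednisolone, 11 of the 31 members that could be measured were 2-fold or more lower (35.5%) and none was 2-fold or more higher. Over all 14132 genes that had a value, 7.93% were lower and 6.91% higher by that much. The 11 lower members were the transporter genes Slc7a3 and Slc6a9, the stress regulator genes Nupr1, Ddit3 and Atf5, the enzyme genes Gpt2, Pycr1 and Asns, and Vldlr, Chac1 and Eif4ebp1. Of the 31 members, 6 were at least 4-fold lower, against 1.68% of all genes. Of these 6, Gpt2 (−1.74) and Slc6a9 (−1.98) came within 4-fold after another background correction (normexp). Slc6a9 (−1.99) also did so when scaled on spike-in control probes. The members' median difference was −0.51, against 0.00 over the 12900 genes measured on both arrays, and 21 of the 31 lay below 0, against 49.8% of those genes. The scaling matters for small values, since scaling on spike-in control probes adds 0.24 to every difference and gave a median of −0.28. In a culture as a whole, fewer cells carrying a message and less of it per cell cannot be told apart. The remaining member, Cth, did not stand well above background with prednisolone or with vehicle.

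**Figure D1:**
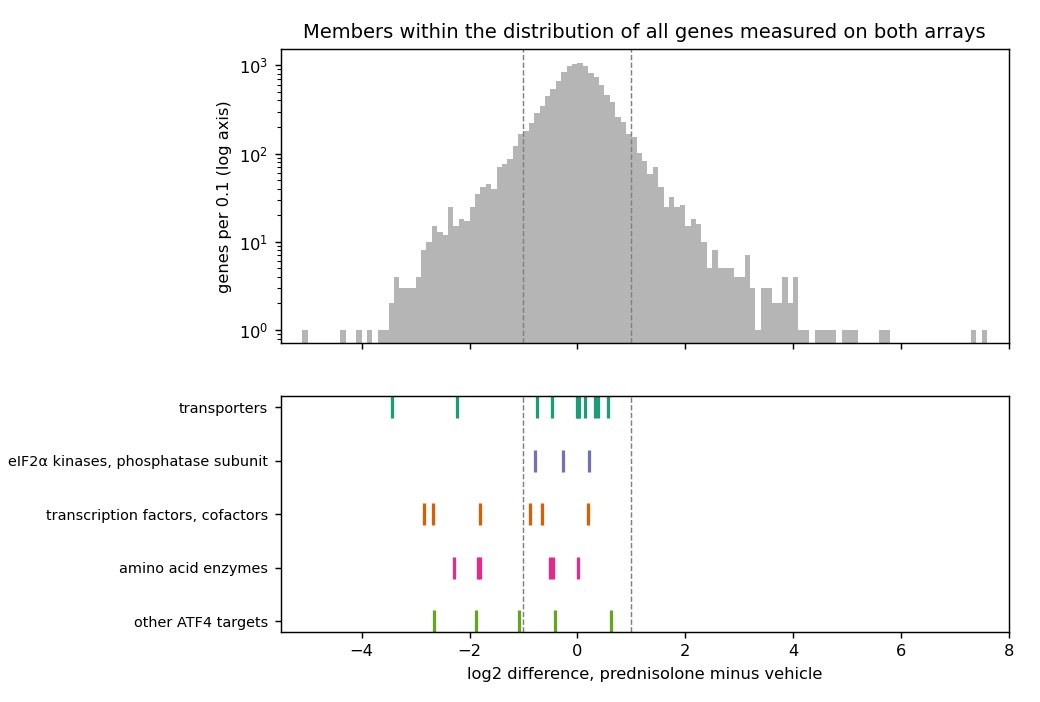
The upper panel shows the number of genes (log axis) per 0.1 of log2 difference, prednisolone minus vehicle, for the 12900 genes measured on both arrays, and each tick in the lower panel is 1 of the 31 members with a value, by role. Dashed lines mark 2-fold, which 11 members pass on the lower side and none on the upper side.

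ATF4 binds, with a C/EBP partner, a composite element whose core can be written TGATGNAA. The RefSeq promoters (build GRCm38.p6, 250 bases before to 50 after the start) held 26 of the 32 members, and they were searched for this core on both strands. It was present in 8 of the 26 (30.8%), against 1219 of 27025 genes with a promoter (4.51%). The members were listed as ATF4 targets, so that this share in part describes how they were chosen. Among the members at least 2-fold lower, 5 of the 9 with a promoter held the core, and among the others 3 of 17 did. The element bound by the glucocorticoid receptor as a dimer, searched as AGAACA, any 3 bases and TGTTCT, was in none of the 26 and in 3 of the 27025 genes, and no match says only that these letters are not in this window. The 9 cores are shown with 10 bases on each side, each turned so that the core, in capitals, reads in the same direction, and ordered by the gene's difference, lowest first.
Nupr1 (chr7:126625563-126625590, plus strand): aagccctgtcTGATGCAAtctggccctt
Vldlr (chr19:27216810-27216837, minus strand): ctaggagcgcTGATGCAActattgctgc
Chac1 (chr2:119351039-119351066, minus strand): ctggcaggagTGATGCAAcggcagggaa
Pycr1 (chr11:120643834-120643861, minus strand): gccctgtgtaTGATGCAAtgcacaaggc
Asns (chr6:7693215-7693242, minus strand): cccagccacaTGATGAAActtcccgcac
Trib3 (chr2:152344029-152344056, plus strand): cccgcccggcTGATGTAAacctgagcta
Slc1a4 (chr11:20332700-20332727, plus strand): aggctggagaTGATGCAAcgcaggaggc
Slc7a11 (chr3:50443662-50443689, minus strand): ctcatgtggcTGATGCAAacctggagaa
Slc7a11 (chr3:50443643-50443670, plus strand): ggctgcatgaTGATGCAAattctccagg

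The core read TGATGCAA at 7 of the 9 sites. That of Asns read TGATGAAA and that of Trib3 TGATGTAA. Counted from the start of transcription, the core began at −110 in Nupr1, −200 in Vldlr, −193 in Chac1, −103 in Pycr1 and −23 in Asns. These are the 5 promoters of lower members that hold the core. In Trib3 it began at 15, inside the transcribed part, and in Slc1a4 it spanned the start, from −4 to 4. Slc7a11 held 2 cores, at −66 and −47, in opposite orientation. The messages of the 5 lower members were 3.49-fold to 7.20-fold lower, and that of Trib3 was 1.83-fold lower. Those of Slc1a4 and Slc7a11, whose cores read TGATGCAA, were within 1.01-fold. Slc7a11 was dim, with 24.0 units with prednisolone and 24.6 with vehicle, so that a difference would be hard to see. A match is a stretch of letters, and binding of ATF4 was not measured. A gene counted as holding the core if any of its promoters did, and Vldlr has another promoter without it. The promoters of the 5 lower members that hold the core are given whole, on the strand of the gene. The core is in capitals as it stands on that strand.
Nupr1 (chr7:126625421-126625720, minus strand): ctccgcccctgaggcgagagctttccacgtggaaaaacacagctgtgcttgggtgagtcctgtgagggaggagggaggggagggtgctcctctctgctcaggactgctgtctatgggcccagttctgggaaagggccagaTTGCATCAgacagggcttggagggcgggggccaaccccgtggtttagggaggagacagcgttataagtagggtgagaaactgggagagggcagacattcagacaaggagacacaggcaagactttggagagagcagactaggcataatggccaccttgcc
Vldlr (chr19:27216770-27217069, plus strand): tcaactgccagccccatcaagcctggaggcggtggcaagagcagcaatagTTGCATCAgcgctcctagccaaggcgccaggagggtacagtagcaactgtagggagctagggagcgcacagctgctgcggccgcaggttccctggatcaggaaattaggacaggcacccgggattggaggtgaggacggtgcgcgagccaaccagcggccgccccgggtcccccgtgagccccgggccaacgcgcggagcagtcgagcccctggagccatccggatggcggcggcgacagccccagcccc
Chac1 (chr2:119350992-119351291, plus strand): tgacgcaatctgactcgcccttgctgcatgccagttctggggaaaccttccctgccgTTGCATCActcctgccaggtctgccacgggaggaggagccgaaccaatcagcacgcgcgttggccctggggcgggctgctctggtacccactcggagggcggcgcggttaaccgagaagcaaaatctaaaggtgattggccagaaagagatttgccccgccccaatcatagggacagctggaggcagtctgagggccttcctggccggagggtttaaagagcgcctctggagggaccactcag
Pycr1 (chr11:120643699-120643998, minus strand): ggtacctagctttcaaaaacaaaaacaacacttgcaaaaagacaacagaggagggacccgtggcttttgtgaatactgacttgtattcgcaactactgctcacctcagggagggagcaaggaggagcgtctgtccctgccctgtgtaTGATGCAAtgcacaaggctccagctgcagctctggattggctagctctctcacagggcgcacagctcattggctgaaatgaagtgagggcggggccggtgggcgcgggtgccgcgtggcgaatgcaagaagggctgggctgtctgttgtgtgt
Asns (chr6:7693160-7693459, minus strand): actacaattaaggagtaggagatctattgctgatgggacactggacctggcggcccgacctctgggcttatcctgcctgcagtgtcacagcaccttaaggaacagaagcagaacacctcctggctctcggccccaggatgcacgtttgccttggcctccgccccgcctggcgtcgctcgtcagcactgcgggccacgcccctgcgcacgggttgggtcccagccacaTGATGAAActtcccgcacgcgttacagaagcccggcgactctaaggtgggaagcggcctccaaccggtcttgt

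The transporters of amino acids were divided. Slc7a3 and Slc6a9 were far lower with prednisolone, while the other 9 lay within 2-fold. Slc7a3, which encodes the cationic amino acid transporter CAT3 for arginine and lysine, had a signal of 61.2 units with prednisolone and 683 with vehicle. That was 10.8-fold lower (−3.43 ± 0.21), the 8th lowest of the 12900 genes, and −2.48 after another background correction (normexp). Slc6a9, the gene of the glycine transporter GLYT1, had 192 units with prednisolone and 931 with vehicle, 4.68-fold lower (−2.23 ± 0.20). Slc7a1, the gene of CAT1, another carrier of cationic amino acids, had 9518 units with prednisolone and 9634 with vehicle (0.03 ± 0.20). Of these carriers of arginine and lysine, the message of CAT3 was thus lower, while that of CAT1 differed by less than the software's error.

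The large neutral amino acid carrier of system L is a pair of SLC7A5, which carries leucine, and SLC3A2, the CD98 heavy chain that brings it to the surface. Slc7a5 had 84.7 units with prednisolone and 147 with vehicle, 1.67-fold lower (−0.74 ± 0.21, 1 probe). Its difference was −0.43 after normexp and −0.51 under spike-in scaling. Slc3a2 was measured by 2 probes, with 5934 units with prednisolone and 10075 with vehicle on the first, and 1720.3 with prednisolone and 2062 with vehicle on the second. They gave −0.71 and −0.21, and the mean was −0.46 ± 0.14. The probes name different transcripts of the gene. The first was lower by more than the software's error of 1 probe, and the second barely so (−0.212 against 0.204). Spike-in scaling adds 0.24 to every difference, which is more than the second probe's distance from 0. Under that scaling the gene was −0.22. Slc7a6, another light chain partner of CD98 that exchanges cationic for neutral amino acids, lay on the other side of 0. It had 158 and 1129.9 units on its 2 probes with prednisolone, against 113 and 768 with vehicle (0.57 ± 0.15). Slc7a11, which encodes the cystine and glutamate exchanger xCT, had 24.0 units with prednisolone and 24.6 with vehicle on the probe above background (0.01 ± 0.29). Its second probe lay at background with prednisolone and with vehicle. A difference in so dim a message would be hard to see.

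The sodium-coupled carriers of glutamine, serine and alanine were near 0 or slightly higher. Slc1a5, the gene of the glutamine carrier ASCT2, had 5265 units with prednisolone and 4373 with vehicle (0.32 ± 0.20). Slc1a4, the gene of ASCT1, a carrier of alanine, serine and cysteine, had 2558 units with prednisolone and 2669 with vehicle (−0.01 ± 0.20, and 0.23 under spike-in scaling). Slc38a1, which encodes the glutamine carrier SNAT1, was higher on each of its 3 probes, with 3086, 10359.7 and 212 units with prednisolone against 2395, 8183 and 176 with vehicle (0.37 ± 0.12). Slc38a2, the gene of SNAT2, which amino acid shortage is known to raise, had 2675 units with prednisolone and 2504 with vehicle (0.15 ± 0.20). Over the 11 transporters the median was 0.01, which was −0.04 without scaling and −0.02 after quantile normalization. The mean was −0.49, with Slc7a3 and Slc6a9 at the lower end.

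**Figure D2:**
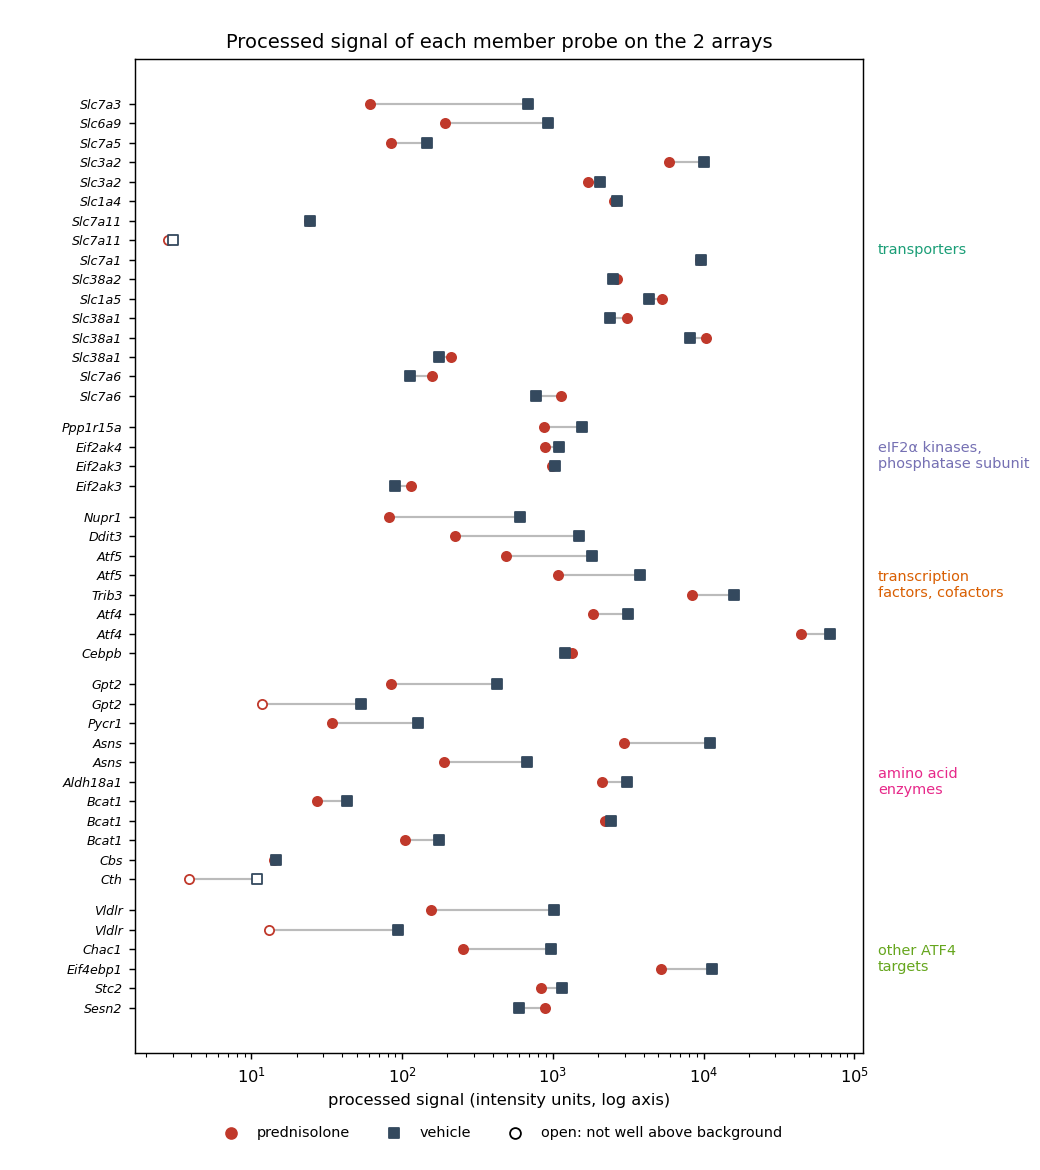
Processed signal (intensity units, log axis) of each of the 45 member probes with prednisolone (circles) and vehicle (squares), grouped by role, a row per probe. Open symbols were not well above background. The circles of Slc7a3, Nupr1, Ddit3, Vldlr and Gpt2 stand far to the left of their squares, and where a circle is not seen it lies under its square.

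Of the kinases that phosphorylate eIF2α, the list holds Eif2ak3, the gene of PERK, which senses stress in the endoplasmic reticulum, and Eif2ak4, the gene of GCN2, which senses uncharged tRNA. Neither was 2-fold apart. Eif2ak3 had 992 and 115 units on its 2 probes with prednisolone, against 1027 and 89.1 with vehicle. The probes gave 0.00 and 0.42, with a mean of 0.21 ± 0.15. Eif2ak4 had 888 units with prednisolone and 1106 with vehicle (−0.27 ± 0.20). Ppp1r15a, which encodes GADD34, the subunit that directs a phosphatase to eIF2α and is itself induced by the response, had 878 units with prednisolone and 1557 with vehicle and was 1.71-fold lower (−0.78 ± 0.20).

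The messages of the transcription factors and their partners were lower for 5 of 6 genes, and at least 2-fold lower for 3. Over all genes the shares were 49.8% below 0 and 7.93% at least 2-fold lower. Atf4 itself was 1.58-fold lower. Its 2 probes had 1851 and 44228 units with prednisolone, against 3171 and 69201 with vehicle, and gave −0.73 and −0.60 (mean −0.66 ± 0.14). Atf5, a related factor whose message is translated in the same stress-dependent way, had 489 and 1088 units with prednisolone against 1816 and 3796 with vehicle. The probes gave −1.84 and −1.75, and the gene was 3.48-fold lower (−1.80 ± 0.14). Ddit3, the gene of CHOP, a C/EBP family member that ATF4 induces and that promotes cell death under lasting stress, had 225 units with prednisolone and 1488 with vehicle. That was 6.39-fold lower (−2.68 ± 0.20), the 46th lowest of the 12900 genes.

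Nupr1, a small chromatin-associated stress protein gene, had 81.6 units with prednisolone and 608 with vehicle, the 28th lowest difference (7.20-fold, −2.85 ± 0.21). It was −2.18 after normexp. Trib3, which encodes a pseudokinase that binds ATF4 and restrains it, had 8412 units with prednisolone and 15924 with vehicle and was 1.83-fold lower (−0.87 ± 0.20). Its only spot carries a background outlier flag on both arrays. Cebpb, the gene of C/EBPβ, a partner of ATF4, was the member of this group above 0, with 1335 units with prednisolone and 1205 with vehicle (0.20 ± 0.20). The median of the 6 genes was −1.34. Atf4 differed less than Atf5, Ddit3 and Nupr1, and all of these values come from 1 culture each.

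**Figure D3:**
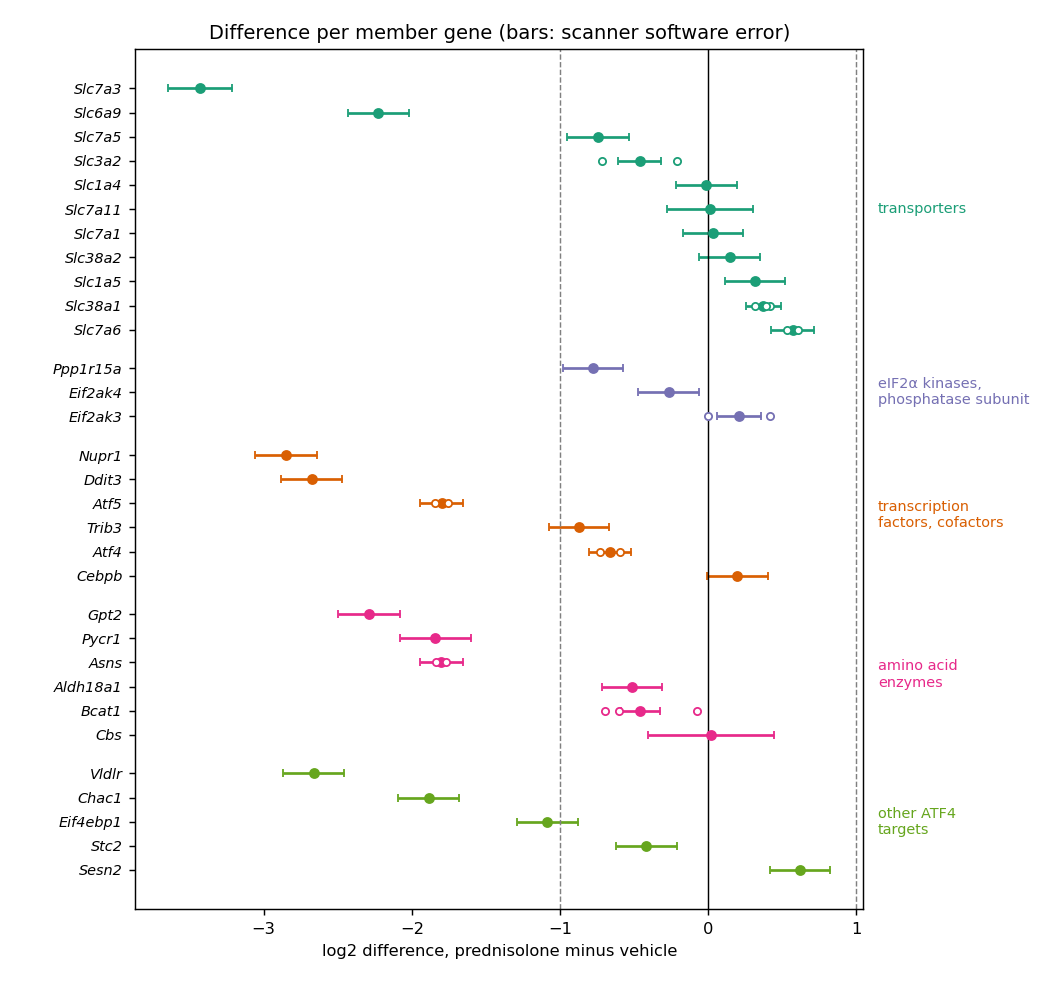
Log2 difference, prednisolone minus vehicle, of the 31 members with a value, by role and ordered within each role (bars: scanner software error). Small open circles are single probes where a gene has several, and dashed lines mark 2-fold; Slc7a3 is lowest at −3.43 and Sesn2 highest at 0.62.

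Among the enzymes of amino acid metabolism, 3 of the 6 with a value were at least 2-fold lower, against 7.93% of all genes. Gpt2, the mitochondrial alanine aminotransferase gene, had 83.9 units with prednisolone and 425 with vehicle, 4.89-fold lower (−2.29 ± 0.21). Its second probe was above background with vehicle alone, at 11.8 units with prednisolone and 53.4 with vehicle, which is at least 4.38-fold lower. Asns, which encodes asparagine synthetase and is one of the best-studied ATF4 targets, had 2974 and 191 units on its 2 probes with prednisolone, against 10988 and 672 with vehicle. The probes gave −1.84 and −1.77, and the gene was 3.49-fold lower (−1.80 ± 0.14). The core in its promoter, shown above, stands nearest to the start among those of the 5 lower members.

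Proline is made from glutamate by the products of Aldh18a1 and then Pycr1. Pycr1, the gene of the last enzyme, had 34.4 units with prednisolone and 128 with vehicle and was 3.58-fold lower (−1.84 ± 0.24). After normexp it was −0.87, no longer 2-fold apart. Aldh18a1, the gene of the first enzyme, had 2107 units with prednisolone and 3113 with vehicle and was 1.43-fold lower (−0.51 ± 0.20). Bcat1, which encodes the cytosolic enzyme that takes the amino group from leucine, isoleucine and valine, had probes that disagree. They had 2231, 104 and 27.3 units with prednisolone against 2436, 174 and 42.9 with vehicle, and gave −0.08, −0.69 and −0.60 (mean −0.46 ± 0.13). The enzymes that turn homocysteine into cysteine were dim. Cbs, the first of them, had 14.2 units with prednisolone and 14.5 with vehicle (0.02 ± 0.43), and Cth, the second, had 3.87 units with prednisolone and 10.9 with vehicle, neither well above background, so that no fold is given.

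The other targets of ATF4 on the list went in both directions. Vldlr, which encodes the very low density lipoprotein receptor, had 155 units with prednisolone and 1017 with vehicle on the probe above background on both arrays, 6.33-fold lower (−2.66 ± 0.21). A second probe was above background with vehicle alone, at 13.1 units with prednisolone and 94.1 with vehicle, at least 6.94-fold lower. Chac1, the gene of an enzyme that degrades glutathione, had 254 units with prednisolone and 971 with vehicle, 3.69-fold lower (−1.89 ± 0.20), from a spot with a background outlier flag on the prednisolone array. Eif4ebp1, which encodes 4E-BP1, an inhibitor of cap-dependent translation, had 5222 units with prednisolone and 11462 with vehicle and was 2.12-fold lower (−1.08 ± 0.20). Under spike-in scaling it was −0.85, within 2-fold.

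Stc2, the gene of the secreted glycoprotein stanniocalcin 2, had 836 units with prednisolone and 1155 with vehicle (−0.42 ± 0.20). Sesn2, which encodes sestrin 2, a leucine sensor that restrains mTORC1, was the member with the highest difference. It had 884 units with prednisolone and 596 with vehicle, 1.54-fold higher (0.62 ± 0.20). Slc7a6, Sesn2, Slc38a1, Slc1a5 and Eif2ak3 were the 5 members above 0 by more than the software's error, and all 5 kept their sign under the scalings tried. The value of Eif2ak3 rests on the dimmer of its probes, since its brightest probe alone gave −0.0009. That brightest probe carries a background outlier flag on the vehicle array, and without flagged spots the gene was 0.42. Of the other members, 20 lay below 0 by more than that error and 6 within it. The same count was not made over all genes, and it depends on the scaling. Under spike-in scaling Eif2ak4 (−0.03) and Stc2 (−0.18) came within the error. Slc7a1 (0.27), Slc1a4 (0.23), Slc38a2 (0.38) and Cebpb (0.44) then lay above 0 by more than it.

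None of the 45 member probes was saturated or carried an outlier flag of the spot itself. A flag for an outlying local background fell on 7 probes of 6 genes, namely Atf4, Chac1, Eif2ak3, Slc38a1, Slc38a2 and Trib3. Chac1, Slc38a2 and Trib3 have no other probe and no value once such spots are left out. The 10 other lower members all stayed at least 2-fold lower without flagged spots. After normexp, 10 members were at least 2-fold lower, against 3.41% of all genes, and under spike-in scaling 10, against 5.16%. Of the 11 members with more than 1 probe, 8 had several above background on both arrays, and the probes of Eif2ak3 were the ones that fell on both sides of 0.

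**Figure D4:**
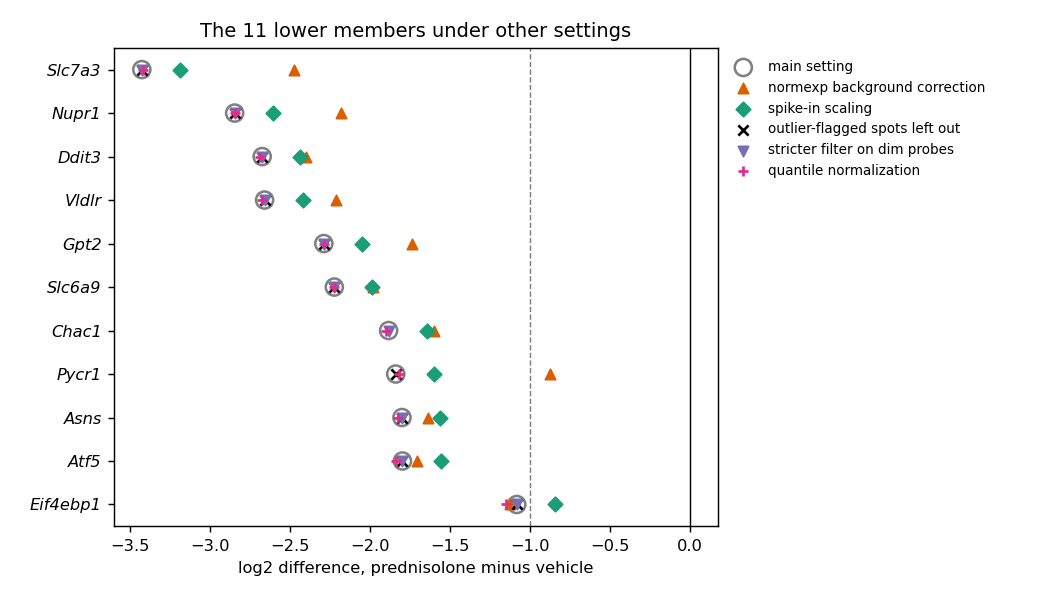
Log2 difference, prednisolone minus vehicle, of the 11 members at least 2-fold lower in the main setting (grey rings) and under 5 of the other settings (coloured marks); the dashed line marks 2-fold. Pycr1 comes within 2-fold after normexp (−0.87) and Eif4ebp1 under spike-in scaling (−0.85), and Chac1 has no value without flagged spots.

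Further genes of the pathway, were taken from 3 lists that do not overlap the members. Of 31 other ATF4 targets 28 had a value, 5 of them at least 2-fold lower (17.9%, against 7.93% of all genes) and none higher (against 6.91%). The median was −0.30, and 18 of the 27 measured on both arrays lay below 0, against 49.8% of all genes so measured. Spike-in scaling adds 0.24 to every difference, which brings the median closer to 0 and puts Phgdh, Nars and Mars1 above 0. The transcription factor gene Jdp2 had 148 units with prednisolone and 701 with vehicle, 4.57-fold lower (−2.19 ± 0.21). Pck2, the mitochondrial phosphoenolpyruvate carboxykinase gene, had 831 and 29.4 units on its 2 probes with prednisolone against 3346 and 85.5 with vehicle (−1.73 ± 0.16). Its brighter probe carries a background outlier flag on the vehicle array. Pck2 was −1.49 without flagged spots and −1.21 after normexp. Atf3, a stress-induced relative of ATF4, had 43.0 units with prednisolone and 139 with vehicle (−1.64 ± 0.22), and −0.88 after normexp. The other 2 were the tRNA synthetase gene Cars (−1.16) and the sterol acyltransferase gene Soat2 (−1.09), named after their values were seen. Under spike-in scaling both come within 2-fold, which leaves Jdp2, Pck2 and Atf3 as lower. The share of all genes at least 2-fold lower is then 5.16%. The serine synthesis genes Phgdh (−0.01) and Psat1 (−0.31), also named after their values were seen, lay closer to 0.

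Of 22 other amino acid transporters, some of them lysosomal, 12 had a value. None was at least 2-fold lower, against 7.93% of all genes, and 1 was higher, against 6.91%. It was Slc16a10, the gene of the aromatic amino acid carrier TAT1. It had 54.0 units with prednisolone and 13.3 with vehicle, where it was not well above background, which is at least 4.19-fold higher, but 0.58 on the log2 scale after normexp. The median of the 10 measured on both arrays was −0.08. Among 16 genes of eIF2 and its other regulators all had a value and none was 2-fold apart, against 14.8% of all genes, with a median of 0.22. The one farthest from 0 was Eif2ak2, the gene of PKR, the eIF2α kinase that senses double-stranded RNA and is induced by interferon. It had 353 units with prednisolone and 695 with vehicle (−0.93 ± 0.20).

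**Figure D5:**
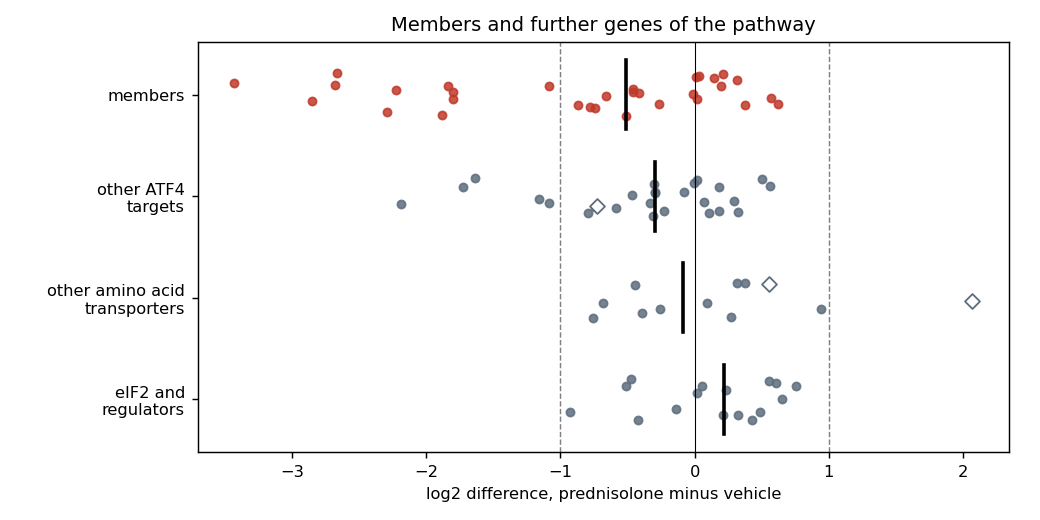
Log2 difference, prednisolone minus vehicle, of the 31 members with a value and of the 3 further lists (a point per gene; open diamonds are bounds; black bars are medians of the genes measured on both arrays). Medians were −0.51 for the members, −0.30 for other ATF4 targets, −0.08 for other transporters and 0.22 for eIF2 and its regulators.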

How the data were processed

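RNA from 1 prednisolone and 1 vehicle culture was hybridised to 1-colour Agilent mouse arrays on 1 slide. The deposited scanner files hold each spot's linear intensity, background-subtracted and detrended within the array by Agilent Feature Extraction 12.0.3.1, and other columns of flags, per the file headers. The deposited value table is that intensity times a constant per array (0.858 for prednisolone, 0.792 for vehicle). The number of arrays limits the precision.

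Computed here (Python 3.11.15) were log2 signals scaled to the 75th percentile of each array's non-control spots, averaged over the spots of a probe and then over a gene's probes that passed background on both arrays without saturation. Flagged spots were kept, as the rule for the members asks. A probe above background on 1 array gave a bound, "at least N-fold", against the other array's value or its lowest value well above background, whichever was higher. Transcript names without version matched RefSeq symbols (GRCm38.p6) for 33767 probes, and 22838 stayed unnamed. The headers name build mm9, so no coordinates beyond the RefSeq promoters' own are given. Between spots of 281 probes printed 10 times, the log2 difference had a median SD of 0.028. There was no test between cultures. The steps were tested on simulated data. Alternatives were normexp (limma 3.58.1, offset 50, on median spot and background signals), 3 other scalings, filters on dim probes and flagged spots, the brightest probe, and the value table. Named were all members and, from each further list, up to 3 genes at each end at least 2-fold apart, or else the gene farthest from 0. Up to 6 promoters of lower members with the core were to be printed; protein sequences were planned and not used here. The members, lists and settings were chosen with earlier results of these data known.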

Additional observations from a re-analysis of the deposited data

How the results depend on the processing

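The count of members at least 2-fold lower was 10 to 12 under all 9 alternatives, against 11, and that of members at least 2-fold higher was 0 under each. Among single members, no difference of at least 2-fold changed sign. Pycr1 after normexp and Eif4ebp1 under spike-in scaling came within 2-fold, Slc7a3, Nupr1 and Pycr1 moved by over 1.5-fold after normexp, all toward 0, and Cth counts as lower only with no filter on dim probes. Eif2ak3 was at −0.0009 on its brightest probe and at 0.42 without flagged spots, against 0.21. Under spike-in scaling, which adds 0.24 to every value by construction, the median of the members was −0.28, that of the transporters 0.25, that of the enzymes −0.92 and that of the transcription factors and cofactors −1.10. The median of the enzymes was −0.68 after normexp and −1.44 with no filter on dim probes, which adds Cth. The median of the transcription factors was −1.80 without flagged spots, which drops Trib3. Over all genes, 977 were at least 2-fold higher and 1121 lower. These counts were 468 and 481 after normexp, 1545 and 727 under spike-in scaling, 1550 and 1831 with no filter on dim probes, and 572 and 600 with a stricter filter (processed signal of at least 50). The causes were not tested beyond what each setting does by construction. Of the genes past 2-fold in either direction, 68.0% were higher under spike-in scaling, against 46.6%. The value table gave the same differences. No paired analysis was possible because there is 1 array per group. Dim probes, such as those of Slc7a11, Cbs and Cth, limit what can be seen.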

Other observations

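Among the ATF4 targets, genes of cytosolic tRNA synthetases, which load amino acids onto tRNAs, lay on both sides of 0. Most of them lay below it, against 49.8% of all genes measured on both arrays. These were picked out after their values were seen. Cars, the gene of the cysteine enzyme, was −1.16 ± 0.12 over 3 probes, Sars −0.79 ± 0.20, Aars −0.58 ± 0.20 and Eprs −0.47 ± 0.10 over 4 probes (log2, prednisolone minus vehicle). Gars and Iars were at −0.30 ± 0.20, Nars at −0.23 ± 0.20 and Mars1 at −0.08 ± 0.20. Spike-in scaling adds 0.24 to every difference, which puts Nars and Mars1 above 0 and Gars and Iars within the software's error. Rars, the gene of the arginine enzyme, was 0.56 ± 0.12 over 3 probes, Wars 0.50 ± 0.14 and Tars 0.32 ± 0.20. Genes of mitochondrial folate metabolism were likewise picked out after their values were seen. Mthfd2 was −0.74 ± 0.14, Mthfd1l −0.31 ± 0.20 and Shmt2 0.18 ± 0.16. Aldh1l2, above background with vehicle alone, was at least 1.66-fold lower with prednisolone. Genes of the eIF2B complex, the exchange factor that phosphorylated eIF2α blocks, were above 0 for all 5 subunits. They too were picked out after their values were seen. Only 75th percentile scaling was examined for them, under which 49.8% of the genes measured on both arrays lay below 0. Values ran from 0.05 ± 0.20 (Eif2b2, within the software's error) to 0.76 ± 0.12 (Eif2b3), with Eif2b4 at 0.21 ± 0.15. Of the 16 genes of eIF2 and its other regulators, 5 lay below 0, among them Eif2ak2 (−0.93), Eif2a (−0.51) and Eif2s2 (−0.48). All these values come from 1 culture per condition, without a test.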
